A study of Rattus norvegicus with 9 samples.

Results

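Transcripts of collagens, laminins, integrins and matrix proteins were measured in the rat retina after streptozotocin (STZ) diabetes, on Illumina RatRef-12 expression BeadChips. Members were the probes whose array annotation carried a collagen chain, laminin chain or integrin subunit symbol, without Itgam, together with Fn1, Sparc, Sparcl1, Spp1, Tnc, Nid1, Nid2, Bgn, Dcn, Lum, Vcan and Bcan. Of 22226 probes, 61 matched, each for a different gene. A probe was tested when every array of the STZ group, or every array of the Control group, gave it a detection p-value below 0.05, which compares the signal with negative controls. By this criterion 36 of the 61 members were tested, among 10261 tested probes in all. Of the 25 others, 14 were detected on no array and 11 on some. Of the 36, 35 were detected on all 9 arrays, and Itgb4 was detected on 4 of 4 STZ and 4 of 5 Control arrays.

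Retinal RNA of 4 STZ rats was compared with that of 5 Control rats, 1 array per rat. The STZ group consisted of male Sprague-Dawley rats injected into the peritoneum with 65 mg/kg STZ, a toxin of insulin-producing beta cells, in citrate vehicle, and their glucose stayed above 250 mg/dL. The Control group were male Sprague-Dawley rats given the vehicle alone, and retinas of both groups were taken 3 months after injection. The study's methods state that a further diabetic array had been removed in quality control. Arrays are called STZ 1 to 4 and Control 1 to 5 below, after their labels.

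Basement membranes are thin sheets on which laminin trimers and type IV collagen form linked networks. In the retina they form the inner limiting membrane under the end feet of Müller glia and surround the capillaries. Beneath the pigment epithelium they form part of Bruch's membrane. Fibrillar collagens and glycoproteins such as fibronectin fill other matrices, including the vitreous and vessel walls. Integrins are receptors of an alpha and a beta chain that bind these proteins and link them to the cell's cytoskeleton. Thickening of the capillary basement membrane is a known feature of diabetic retinopathy.

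Median array intensity was 76.9 to 87.9 in STZ and 70.0 to 84.4 in Control arrays. Squared correlations of log2 intensity were 0.975 to 0.985 among STZ arrays and 0.987 to 0.993 among Control arrays. BeadChip 2 held all STZ arrays with Control 4 and Control 5, whereas BeadChip 1 held Control 1 to 3 alone. All 8 rod markers on the array were tested, with a summed intensity of 70280 to 73493 in STZ and 76513 to 78895 in Control arrays. Of 11 tested lens markers 9 were higher in STZ, and the list summed to 82789 to 118395 in STZ and 22879 to 33599 in Control arrays. The Müller glia list summed to 50946 to 55776 in STZ and 42650 to 46348 in Control arrays (8 tested, with Dbi, Vim and Cd44 higher, while Rlbp1, Car2 and Apoe differed by -0.29, -0.12 and -0.25 and did not pass), and the endothelial list to 3147 to 3647 in STZ and 2813 to 3111 in Control arrays (9 tested, 1 higher). The ganglion cell list summed to 13119 to 15118 in STZ and 16276 to 17830 in Control arrays (11 tested, 4 lower). The microglia and macrophage list summed to 1520 to 1888 in STZ and 1379 to 1643 in Control arrays (7 tested, 2 higher). For fibroblasts, Gsn and Pdgfra were both tested and both higher, with a sum of 728 to 983 in STZ and 442 to 613 in Control arrays, while Dpt, Fap, Mfap5, Pi16 and Twist2 were detected on no array. No marker passed in the remaining lists. The pericyte and smooth muscle list (4 tested) summed to 588 to 638 in STZ and 575 to 593 in Control arrays. The astrocyte list (2 tested) summed to 11496 to 13695 in STZ and 12918 to 14817 in Control arrays. Blood erythroid markers (5 tested) summed to 4929 to 12632 and 6427 to 16254, and extraocular muscle markers (3 tested) to 486 to 573 and 530 to 596. The part of these cell types in the results below was not tested. In whole retina, more or fewer cells of a type and more or less RNA per cell cannot be told apart.

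Intensities were background corrected, quantile normalized and placed on a log2 scale, and STZ was compared with Control in limma with Benjamini-Hochberg adjustment over all tested probes. The background correction used the mean and SD of the negative control signals implied by the detection p-values. That SD was 154 to 215 intensity units on STZ and 141 to 203 on Control arrays. A robust SD from the median absolute deviation was 9.06 to 11.01 on STZ and 8.60 to 10.9 on Control arrays. Between 26 and 33 probes per STZ array, and between 23 and 29 per Control array, gave a signal above 200 while their detection p exceeded 0.05. With the larger SD the lowest detected signal lay near 7.05 on the log2 scale, and differences of faint probes were compressed. For the called members and most of the faint ones the difference is therefore also given under the robust background, a correction chosen after the data were seen.

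In the STZ retina 4 of 36 tested members passed an adjusted p of 0.05, against 9.32% of all tested probes. Lama5, Itgb4 and Col5a1 were higher, where 4.84% of all probes were higher, and Col11a2 was lower, where 4.47% of all probes were lower. Itgb4 met the detection criterion only through the STZ arrays, on which it was higher. The members' share thus lay near the background. The median log2 difference was 0.02 over the 36 members, 21 positive and 15 negative, and -0.01 over all tested probes, of which 42.2% were positive. The larger differences of Spp1, Itgb1 and Sparc did not pass. At the thresholds of the study's methods, a fold of 1.2 with p below 0.05 before adjustment, the same limma fit gave 5 members higher (Lama5, Itgb1, Col5a3, Sparc and Spp1) and 0 lower, against 5.58% and 4.45% of all tested probes.

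**Figure D1:**
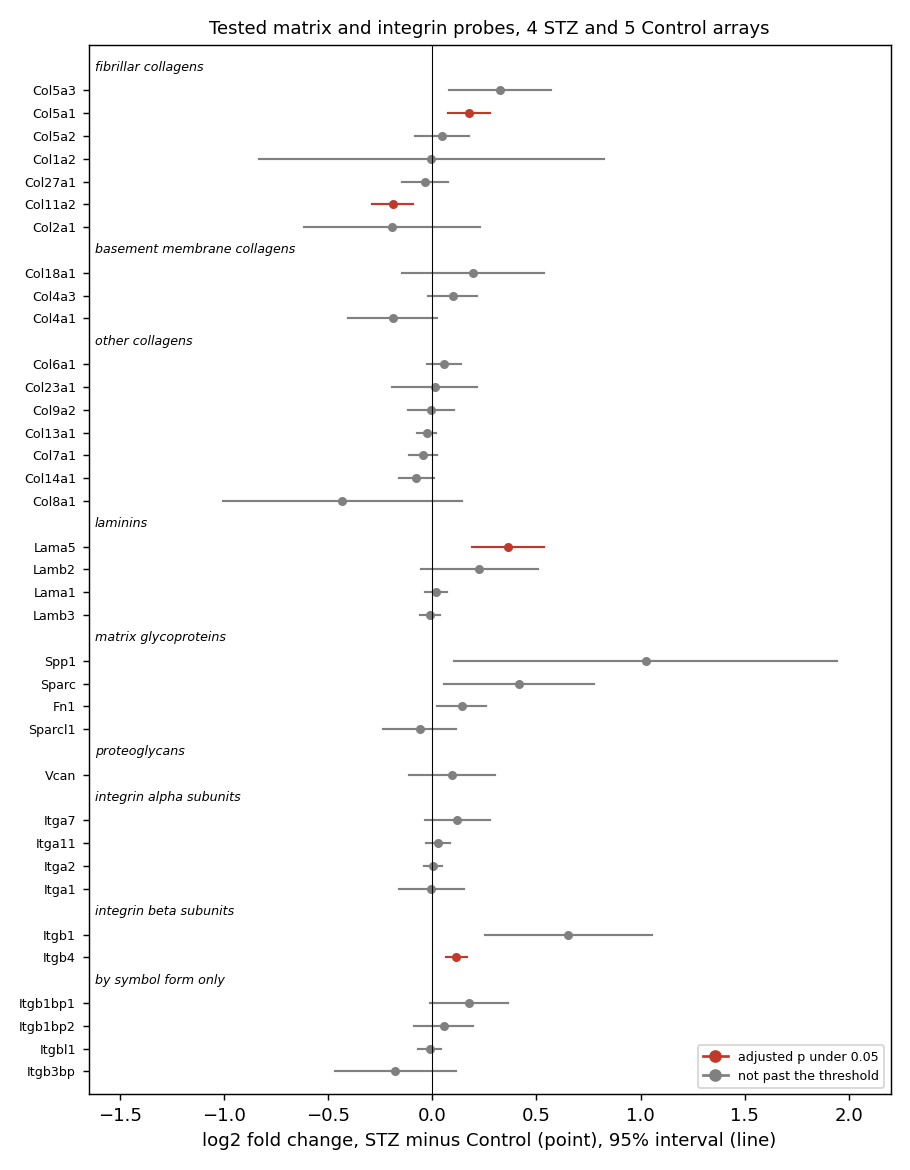
Log2 fold change of the 36 tested members by role (horizontal axis, STZ minus Control), with the point as the estimate and the line as its 95% interval from limma. Red marks the 4 members past an adjusted p of 0.05 (Lama5 0.36, Col5a1 0.18, Itgb4 0.12 and Col11a2 -0.19), and the widest intervals belong to Spp1, Col1a2 and Col8a1.

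Laminins are cross-shaped trimers of an alpha, a beta and a gamma chain, and Lama5 encodes the alpha 5 chain of adult vascular and epithelial basement membranes. Lama5 read 8.002, 7.76, 7.62 and 7.61 on the STZ arrays, against 7.39, 7.41, 7.37, 7.36 and 7.39 on the Control arrays. The groups did not overlap, and the Control arrays lay closely together while STZ 1 stood highest. The difference was 0.36 (SE 0.075, adjusted p = 0.0227 in limma), and 0.80 under the robust background. Lamb2, the beta 2 chain joined to alpha 5 in several basement membranes, averaged 9.30 ± 0.29 in STZ and 9.07 ± 0.09 in Control retina (SD, n = 4 and 5), with an adjusted p of 0.301 in limma. Its STZ values were 9.67, 9.39, 9.06 and 9.07, so that STZ 1 and STZ 2 lay above the highest Control array at 9.19, and STZ 3 and STZ 4 did not. Lama1 and Lamb3 were close to background, with log2 differences of 0.02 and -0.01 (0.10 and -0.11 under the robust background). Lamc1, the widespread gamma 1 chain, was detected on 3 of 4 STZ and 2 of 5 Control arrays, and Lamc3 on none, and neither was tested.

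The 250 bases before the Lama5 start are shown because Lama5 had the largest log2 difference, 0.36, among the members that passed, although under the robust background Itgb4 differed by more (0.90 against 0.80). RefSeq places them at chr3:187695975-187696224 of GRCr8, on the minus strand, and capitals mark the GC box GGGCGG or its complement CCGCCC.
Lama5: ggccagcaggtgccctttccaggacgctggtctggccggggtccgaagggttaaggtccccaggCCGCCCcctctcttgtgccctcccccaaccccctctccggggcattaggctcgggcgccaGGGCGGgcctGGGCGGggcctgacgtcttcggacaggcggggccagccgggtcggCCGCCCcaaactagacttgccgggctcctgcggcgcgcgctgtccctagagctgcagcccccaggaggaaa
This window held 4 GC boxes. The motifs were searched on both strands in each window, namely the GC box GGGCGG, the box CCAAT, the TATA box TATAAA and the AP-1 element TGANTCA, where N is any base, and no motif was dropped for overlapping another. The motif GGGCGG stood in 30.5% of 33469 rat windows of this length, CCAAT in 34.0%, TATAAA in 12.9% and TGANTCA in 6.34%. Windows were matched for 31 of the 36 tested members, and 17 of these 31 (54.8%) held the GC box, 7 the CCAAT box, 3 the TATA box and 1 the AP-1 element. These are matches of letters and not sites of binding.

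Of 9 fibrillar collagens on the array 7 were tested, with 1 higher, 1 lower and a median log2 difference of -0.01. Type V collagen is a minor fibril collagen that sets fibril diameter, and its 3 chains were all tested. Col5a1 read 7.67, 7.57, 7.48 and 7.46 on the STZ arrays, against 7.40, 7.36, 7.41, 7.32 and 7.35 on the Control arrays, without overlap. The difference was 0.18 (SE 0.044, adjusted p = 0.0430 in limma), and 0.48 under the robust background. Col5a3 read 8.49, 8.28, 8.09 and 8.39 on STZ arrays and 8.10, 7.97, 7.76, 7.90 and 8.21 on Control arrays. Here STZ 3 fell within the Control range, and the difference of 0.33 did not pass (SE 0.11, adjusted p = 0.0968 in limma). Col5a2 differed by 0.05 (adjusted p = 0.673 in limma).

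The Col5a1 probe and the window before its start are shown because Col5a1 was the only fibrillar collagen that passed in the higher direction. The probe is a 50-base stretch of the coding sequence, listed by the study for the same transcript under another identifier than the measured probe, so that the measured probe may be a different stretch. The window lies at chr3:31606630-31606879 of GRCr8, plus strand, with its only motif, GGGCGG, in capitals.
Col5a1 probe: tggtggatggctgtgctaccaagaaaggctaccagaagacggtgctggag
Col5a1: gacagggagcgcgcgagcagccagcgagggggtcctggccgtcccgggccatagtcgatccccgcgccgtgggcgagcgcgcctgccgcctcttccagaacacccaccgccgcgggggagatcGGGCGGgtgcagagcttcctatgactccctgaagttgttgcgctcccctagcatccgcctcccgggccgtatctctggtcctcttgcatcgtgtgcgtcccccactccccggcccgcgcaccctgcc

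Col11a2 encodes a chain of type XI collagen, which copolymerises with type II collagen in cartilage. It read 7.55, 7.43, 7.39 and 7.47 on the STZ arrays, against 7.63, 7.74, 7.59, 7.61 and 7.69 on the Control arrays. After normalization the groups did not overlap, with STZ 1 closest to Control. Before normalization STZ 1 was the brightest array for this probe at 272 units, so the separation holds only on the normalized scale. The difference was -0.19 (SE 0.043, adjusted p = 0.0306 in limma), and -0.44 under the robust background. Its upstream window, at chr20:4817649-4817898 of GRCr8, minus strand, is printed as that of the only member that passed in the lower direction, with 3 copies of GGGCGG in capitals, the first pair overlapping.
Col11a2: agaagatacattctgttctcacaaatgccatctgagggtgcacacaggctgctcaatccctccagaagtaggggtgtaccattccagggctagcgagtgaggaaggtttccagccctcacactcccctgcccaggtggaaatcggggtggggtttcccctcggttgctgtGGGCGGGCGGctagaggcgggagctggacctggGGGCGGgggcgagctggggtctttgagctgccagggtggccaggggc

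Col2a1, the main vitreous collagen and a partner of type XI chains, read 8.79, 7.91, 7.88 and 7.96 on STZ arrays and 8.14, 8.37, 8.33, 8.29 and 8.51 on Control arrays. STZ 1 was above all other arrays, and STZ 2 to 4 were below all Control arrays. With all arrays the difference was -0.19 (adjusted p = 0.576 in limma). Without STZ 1 it was -0.40 and passed (adjusted p = 0.0222 in limma). Of 22 alternative settings Col2a1 passed only in this fit, which leaves out the STZ array that lay above all others. Col2a1, Col1a2, Col8a1 and Col18a1 are described after their values were seen. Col27a1 differed by -0.04 on the log2 scale. Col1a1 was detected on STZ 1 alone, and Col3a1 on no array, so that neither was tested.

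The groups did not overlap for Lama5, Itgb4, Col5a1 and Col11a2, as for 13.0% of all tested probes (6.60% with STZ above, 6.41% with STZ below). None of these 4 members passed when BeadChip was a block in limma, where 1.74% of all probes passed, or within BeadChip 2 alone, where 0.112% did. With the block the differences were 0.37 for Lama5, 0.11 for Itgb4, 0.21 for Col5a1 and -0.19 for Col11a2 (adjusted p from 0.120 to 0.163), and within BeadChip 2 they were 0.37, 0.11, 0.22 and -0.19 (adjusted p from 0.231 to 0.269). Because BeadChip 1 held no STZ array, the difference in both fits is that of STZ from Control 4 and Control 5 alone. The block and BeadChip 2 results, here and below, are therefore not separate checks. Lama5 no longer passed without Control 3 (adjusted p = 0.0555 in limma) or Control 4 (0.0603), and Itgb4 no longer passed without STZ 3 (0.0525). Col5a1 passed in 1 of 9 fits that left out an array, the fit without STZ 4, and Col11a2 in 2 of 9, those without STZ 1 or Control 3.

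Of the basement membrane collagens, Col4a1, Col4a3 and Col18a1 were tested of 6 on the array, and none passed. Col4a1 encodes a chain of the main type IV network of vessels. It read 10.24, 9.81, 10.03 and 9.90 on STZ arrays and 10.23, 10.10, 10.27, 10.02 and 10.31 on Control arrays. STZ 2 and STZ 4 were below all Control arrays, and the difference of -0.19 did not pass (95% interval -0.41 to 0.02, adjusted p = 0.251 in limma). Col4a3, a chain of the network known from kidney glomeruli, differed by 0.10 (interval -0.02 to 0.22, adjusted p = 0.286 in limma). Col18a1, whose C-terminal fragment is endostatin, read 8.75 on STZ 1, while the other STZ arrays lay at 7.91 to 8.10 and the Control arrays at 7.93 to 8.11. Its difference of 0.19 came to 0.02 without STZ 1. Col4a4 was detected on 0 STZ and 3 Control arrays, and Col4a5 and Col15a1 on no array.

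Of 10 further collagens 7 were tested, and none passed in either direction, with a median log2 difference of -0.03. Col14a1, which sits on collagen fibrils, differed by -0.08 (adjusted p = 0.239 in limma), and Col6a1, Col7a1, Col9a2, Col13a1 and Col23a1 by -0.05 to 0.06. Under the robust background the difference was -0.40 for Col14a1, 0.36 for Col6a1, -0.31 for Col7a1 and -0.24 for Col13a1, and none of them passed. Col17a1 was detected on STZ 1 alone, and Col6a2 and Col6a4 on no array. Col8a1 encodes a network collagen of Descemet's membrane and of vessel walls. It read 8.88, 7.92, 7.77 and 7.93 on STZ arrays and 8.43, 8.15, 8.91, 8.89 and 8.42 on Control arrays. STZ 2 to 4 were below all Control arrays and STZ 1 lay among the highest, and the difference of -0.43 did not pass (SE 0.25, adjusted p = 0.331 in limma). Col1a2, a chain of the fibrillar type I collagen, read 8.70, 8.50, 7.37 and 7.19 on STZ arrays and 7.63, 7.48, 8.46, 8.34 and 7.82 on Control arrays. The STZ arrays held both the highest pair and the lowest pair of values, and the difference was -0.01 (SE 0.36), and -0.33 under the robust background.

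The 3 arrays highest for Col8a1, which were STZ 1, Control 3 and Control 4, were also highest for the sum of the 5 tested pigment epithelium markers, though not for each marker. Their summed intensity was 2212, 867, 768 and 875 on STZ arrays and 817, 1339, 3778, 4315 and 1053 on Control arrays. Col1a2 was highest on these 3 arrays and on STZ 2. The part of pigment epithelium in these values was not tested. With STZ 1, Control 3 and Control 4 left out, Col8a1 differed by -0.44 (adjusted p = 0.114 in limma) and Col1a2 by 0.05. In the same fit, chosen after the data were seen, none of the 36 members passed.

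**Figure D2:**
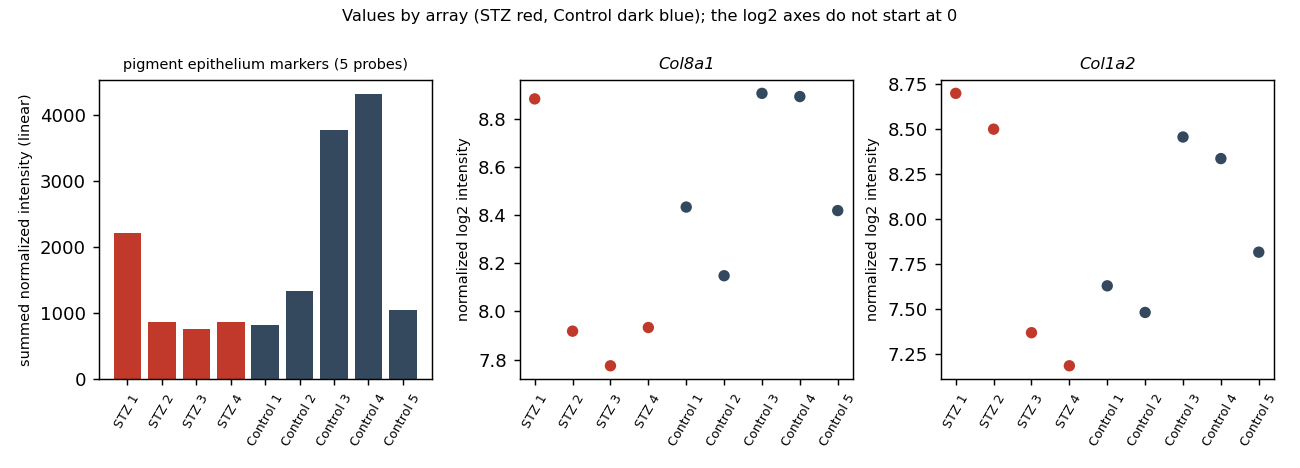
Summed normalized intensity of 5 pigment epithelium markers (left, linear bars from 0) and normalized log2 intensity of Col8a1 and Col1a2 (middle and right, points) on each array, STZ in red and Control in dark blue. STZ 1, Control 3 and Control 4 are the highest for the marker sum (2212, 3778 and 4315) and for Col8a1 (8.88, 8.91 and 8.89).

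Among matrix glycoproteins, Spp1, Sparc, Fn1 and Sparcl1 were all tested and none passed the adjusted threshold. Spp1 encodes osteopontin, a secreted phosphoprotein that binds integrins and CD44. It read 7.69, 8.50, 8.91 and 10.03 on STZ arrays and 7.87, 7.58, 8.12, 7.43 and 7.80 on Control arrays. STZ 2 to 4 were above all Control arrays, while STZ 1 lay within the Control range and STZ 4 was far above the rest. The difference was 1.02 (SE 0.40, 95% interval 0.11 to 1.94, adjusted p = 0.153 in limma). Without STZ 1 it was 1.37 and passed (adjusted p = 0.0494), and without STZ 4 it was 0.61 (adjusted p = 0.215). Of 22 alternative settings Spp1 passed only in that without STZ 1. STZ 1 was the lowest and STZ 4 the highest STZ array also for the summed microglia and macrophage markers, at 1520, 1799, 1756 and 1888 on STZ arrays. STZ 2 and STZ 3 stood in the opposite order for Spp1. The sums on Control arrays were 1379, 1406, 1473, 1457 and 1643, highest on Control 5, whereas Spp1 was highest on Control 3 among the Control arrays. The order of STZ arrays was not particular to the microglia list. The extraocular muscle list had the same order, at 486, 531, 519 and 573 on STZ arrays, with 530 to 596 on Control arrays. The endothelial, ganglion cell and blood erythroid sums were also highest on STZ 4, but lowest on STZ 3. The part of these cell types in the Spp1 values was not tested.

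The Spp1 probe and upstream window are shown because Spp1 had the largest log2 difference of all tested members. The probe lies in the coding sequence, and its identifier in the study's list also differs from that of the measured probe. The window at chr14:5619805-5620054 of GRCr8, minus strand, held 1 TATAAA, in capitals, and no copy of the other 3 motifs.
Spp1 probe: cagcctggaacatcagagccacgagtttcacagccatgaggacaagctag
Spp1: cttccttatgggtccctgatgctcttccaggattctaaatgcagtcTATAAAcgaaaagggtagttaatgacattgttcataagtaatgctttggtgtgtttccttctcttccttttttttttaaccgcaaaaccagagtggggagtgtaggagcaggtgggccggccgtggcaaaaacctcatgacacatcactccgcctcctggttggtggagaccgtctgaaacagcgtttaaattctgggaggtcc

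Sparc, a collagen-binding protein also called osteonectin, read 11.88, 11.65, 11.46 and 11.24 on STZ arrays and 11.23, 11.14, 11.31, 10.71 and 11.31 on Control arrays. STZ 1 to 3 were above all Control arrays, STZ 4 was among them, and Control 4 was the lowest. The difference of 0.42 did not pass (SE 0.16, adjusted p = 0.142 in limma). Fn1, fibronectin, averaged 7.85 ± 0.08 in STZ and 7.71 ± 0.08 in Control retina (SD, n = 4 and 5), with overlapping arrays and an adjusted p of 0.130 in limma. Sparcl1, the related protein hevin that astrocytes secrete, averaged 12.54 ± 0.07 in STZ and 12.60 ± 0.15 in Control retina. Of the proteoglycans only Vcan, versican, was tested, and it averaged 7.95 ± 0.19 in STZ and 7.85 ± 0.10 in Control retina. Lum and Bgn were each detected on some arrays of both groups, and Bcan on none. Dcn, decorin, was detected on 3 of 4 STZ and 2 of 5 Control arrays, and its signal was 337 units on STZ 1, against 59.8 to 97.6 on all others. Tnc, Nid1 and Nid2 had no probe under these symbols.

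**Figure D3:**
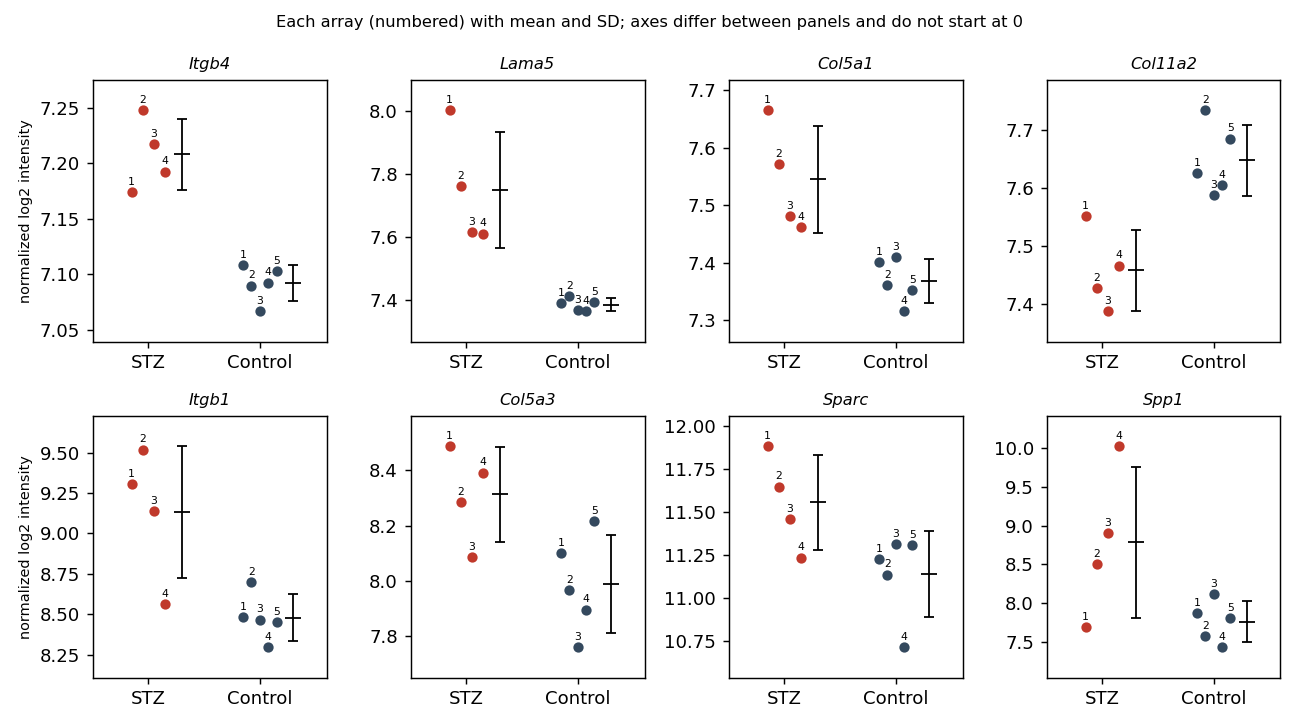
Normalized log2 intensity of 8 members on each array (points, numbered by replicate), with STZ in red on the left and Control in dark blue on the right of each panel, and with the mean and SD beside each group. Itgb4, Lama5, Col5a1 and Col11a2 show no overlap of the groups, whereas 1 STZ array lies within the Control range for each of Itgb1, Col5a3, Sparc and Spp1.

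Of the 17 integrin subunits on the array, 6 were tested. Itgb4 pairs with Itga6 in the laminin receptor of hemidesmosomes. It read 7.17, 7.25, 7.22 and 7.19 on STZ arrays and 7.11, 7.09, 7.07, 7.09 and 7.10 on Control arrays, without overlap. Before normalization these were 130, 130, 131 and 113 intensity units on STZ arrays and 92.1, 73.4, 73.3, 90.5 and 89.8 units on Control arrays. The difference was 0.12 (SE 0.023, adjusted p = 0.0185 in limma) and 0.90 under the robust background (adjusted p = 0.00123), so that its size depended on how the background was modelled. Control 3 was not above background for this probe, and Itgb4 entered the tests only through the group in which it was higher. In the fit of all probes without a detection filter the difference was also 0.12 (adjusted p = 0.0131 in limma). That fit used the same normalized values, so the equal difference was fixed in advance and is no separate check. Itga6, the partner of Itgb4, was detected on STZ 1 only and was not tested.

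Itgb1 encodes the beta 1 subunit shared by most collagen, laminin and fibronectin receptors. It read 9.30, 9.52, 9.14 and 8.56 on STZ arrays, against 8.48, 8.70, 8.47, 8.29 and 8.45 on Control arrays. STZ 1 to 3 were above all Control arrays and STZ 4 lay below Control 2. The difference of 0.65 narrowly missed the threshold (SE 0.18, 95% interval 0.25 to 1.05, adjusted p = 0.0532 in limma). It passed with 0.59 under the robust background (0.0377), with 0.55 in the authors' processed values (0.0239) and with 0.84 without STZ 4 (0.00541). Of 22 alternative settings it passed in 5, and of the 9 fits that left out an array only in that without STZ 4. With BeadChip as a block it was 0.76 (adjusted p = 0.154), and within BeadChip 2 also 0.76 (0.296).

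Beta 1 partners were measured in 4 alpha subunits, and none passed. Itga7, a laminin receptor chain, averaged 7.85 ± 0.07 in STZ and 7.73 ± 0.13 in Control retina. Itga1, Itga2 and Itga11, the collagen receptor chains, differed by -0.01, 0.0021 and 0.03, with 95% intervals of -0.16 to 0.15, -0.04 to 0.05 and -0.03 to 0.09. Itga2 and Itga11 were near the lowest detected level, where differences are compressed, and under the robust background they differed by 0.02 and 0.14. Itga4, Itga5 and Itgb6 were detected on some arrays. Itga8, Itga10, Itgad, Itgal, Itgb2, Itgb7 and Itgb8 were detected on none. Of these, Itgal, Itgad, Itgb2 and Itgb7 are integrin chains of leukocytes.

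The members Itgb1bp1, Itgb1bp2, Itgb3bp and Itgbl1 matched by the form of their symbol alone and are not matrix proteins or integrins as such. Itgb1bp1, which binds the beta 1 tail inside the cell, averaged 9.93 ± 0.17 in STZ and 9.75 ± 0.09 in Control retina (adjusted p = 0.224 in limma). Itgb1bp2, Itgb3bp and Itgbl1 differed by 0.05, -0.18 and -0.01 and did not pass. Without these 4, the count remained 4 of 32.

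The spread between rats was wider in STZ. The SD was larger in STZ than in Control for 28 of 36 members, against 63.4% of all tested probes. STZ 1 was the highest STZ array for 16 of 36 members (44.4%), against 29.6% of all tested probes, and Control 5 was the highest Control array for 13 of 36 (36.1%), against 19.1%. These shares describe the arrays and were not tested.

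**Figure D4:**
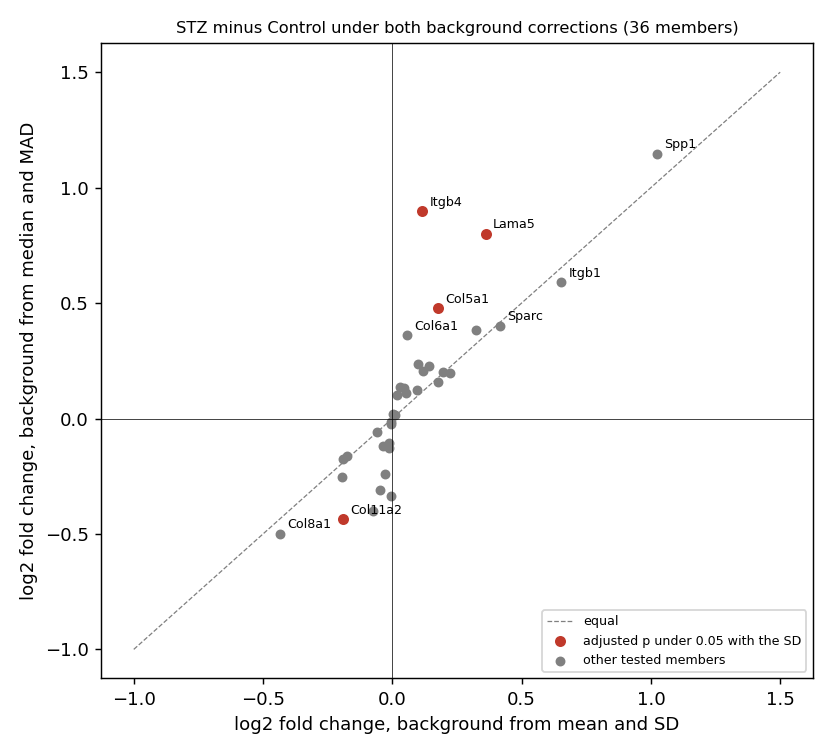
Log2 fold change (STZ minus Control) of the 36 tested members with the background modelled from mean and SD (horizontal) and from median and median absolute deviation, MAD (vertical). Red marks the 4 members past an adjusted p of 0.05 with the SD, and Itgb4 (0.12 and 0.90), Lama5 (0.36 and 0.80), Col5a1 (0.18 and 0.48) and Col11a2 (-0.19 and -0.44) lie farther from 0 than the dashed line of equality, whereas Itgb1 and Sparc lie near it.

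Genes that assemble, modify or read the matrix were taken from 5 lists. The genes named first from each list are those with its smallest p in limma, so they do not represent the list. In the list of collagen processing and cross-linking 2 of 17 tested genes were higher and 0 lower, with a median log2 difference of 0.05. Fkbp10, a prolyl isomerase that helps procollagen fold, read 9.25, 9.34, 9.25 and 9.23 on STZ arrays and 8.42, 8.59, 8.39, 8.37 and 8.58 on Control arrays. The 4 STZ arrays lay within a narrow range far above the Control arrays, and the difference was 0.80 (SE 0.054, adjusted p = 0.000717 in limma). It also passed with BeadChip as a block (0.79, adjusted p = 0.0135) and within BeadChip 2 (0.79, adjusted p = 0.0445). The difference in both of these fits is that of STZ from Control 4 and Control 5 alone. Loxl2, an enzyme that cross-links collagen, was higher by 0.22 (adjusted p = 0.00903 in limma), and by 0.91 under the robust background. It did not pass with BeadChip as a block (0.21, adjusted p = 0.0825) or within BeadChip 2 (0.21, 0.184). Pcolce, the enhancer of procollagen C-proteinase, differed by 0.12 (adjusted p = 0.123), and by 0.69 under the robust background (0.0765).

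Of 33 other matrix genes 2 were higher and 1 lower, with a median log2 difference of 0.02. Ccn2, connective tissue growth factor, read 11.75, 12.04, 11.96 and 11.80 on STZ arrays and 11.20, 11.35, 11.11, 11.37 and 11.36 on Control arrays. All STZ arrays were above all Control arrays by 0.61 on average (SE 0.078, adjusted p = 0.00419 in limma). Efemp2, fibulin 4 of elastic fibres, was higher by 0.37 (adjusted p = 0.00542). Impg1, a proteoglycan of the matrix around photoreceptors, fell by 0.48 (adjusted p = 0.00846). With BeadChip as a block, Ccn2 (0.52, adjusted p = 0.0453) and Efemp2 (0.28, 0.0343) passed and Impg1 (-0.49, 0.0641) did not. Within BeadChip 2 none of the 3 passed (adjusted p = 0.102, 0.0797 and 0.174 in limma).

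In the TGF-beta list, a pathway that drives matrix synthesis in many tissues, 3 of 16 tested genes were higher and 0 lower, with a median log2 difference of 0.03. Tgfb2, the ligand, averaged 10.52 ± 0.11 in STZ and 10.14 ± 0.06 in Control retina (difference 0.38, adjusted p = 0.00598 in limma). Ltbp1, which tethers latent TGF-beta to matrix, was higher by 0.41 (0.0166), and Tgif1, a transcriptional repressor of the pathway, by 0.13 (0.0324), or by 0.72 under the robust background. With BeadChip as a block only Tgfb2 of these 3 passed (0.40, adjusted p = 0.0438), none passed within BeadChip 2 (Tgfb2 0.40, 0.131), and Tgif1 passed in only 1 of 9 fits that left out an array.

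Of 24 tested genes of the integrin adhesion complex 2 were higher and 0 lower, with a median log2 difference of 0.02. Lims1, the adaptor PINCH that joins integrin-linked kinase, read 9.44, 8.38, 9.61 and 8.06 on STZ arrays and 7.55, 7.62, 7.60, 7.50 and 7.58 on Control arrays. STZ 1 and STZ 3 were highest for Lims1, and the lens, fibroblast and Müller glia marker sums were also highest on these arrays. On STZ 1 to 4 the lens sums were 118395, 87274, 111717 and 82789. The fibroblast sums were 867, 752, 983 and 728, in the same order of arrays as Lims1. The Müller glia sums were 55776, 50946, 53306 and 52774. The part of these cell types in the Lims1 values was not tested. The Lims1 difference was 1.30 (SE 0.31, adjusted p = 0.0344 in limma). Without STZ 1 it was 1.08 (adjusted p = 0.0778), it passed in 2 of 9 fits that left out an array, those without STZ 2 or STZ 4, and it did not pass with BeadChip as a block (1.33, 0.162). Cd151, a tetraspanin bound to laminin-binding integrins, was higher by 0.46 (0.0468, and past the threshold in 1 of 9 such fits), and did not pass with the block (0.42, 0.243). Flna, filamin A, differed by 0.27 (0.0894). Of 12 tested non-integrin matrix receptors 1 was higher and 0 lower, with a median log2 difference of 0.04. Cd44, the hyaluronan receptor that is also in the Müller glia list, averaged 7.61 ± 0.04 in STZ and 7.41 ± 0.04 in Control retina (adjusted p = 0.00747 in limma; 0.0381 with BeadChip as a block and 0.0976 within BeadChip 2). Sdc2 and Rpsa differed by 0.29 and 0.18 (adjusted p = 0.0723 and 0.127). Gpc3, Hmmr and Dmd, named after their values were seen, differed by -0.20, -0.27 and -0.31 (adjusted p = 0.134, 0.143 and 0.171). Set against 4.84% of all tested probes higher and 4.47% lower, these lists are described by their counts and were not tested as sets. The lists were chosen with earlier results of these data known. They count 1 probe per gene, whereas the shares are over all tested probes.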

How the data were processed

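Retinal total RNA of 4 STZ and 5 Control rats was measured on RatRef-12 BeadChips. Per the file headers, the deposited main table holds bead-averaged intensity on a linear scale, not normalized, and a detection p-value per probe and array, exported from GenomeStudio 1.0.6 according to the submitters' processing notes. A table of the authors' processed intensity values, quantile normalized without a log2 step, served as an alternative. In R 4.3.3 with limma 3.58.1, normexp background correction (negative controls inferred from the detection p, offset 16), quantile normalization and log2 were applied. The detection filter (p below 0.05 throughout either group) left 10261 probes, which entered a linear model of group with empirical Bayes, two-sided, with Benjamini-Hochberg adjustment over these probes. The number of arrays limits the precision, since no counts underlie the intensities. The labels give 1 array per rat, so p-values cover the spread between rats. The replicate numbers name different rats and pair no samples. The self-test ran the model on simulated log2 values.

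The members and gene lists were chosen with earlier results of these data known. Named were all members past the threshold, the next 8 by p, and those the membership rule names singly. The tested type IV collagen, laminin and beta 1 partner chains were also named. From each other list the 3 genes with the smallest p were named, each by its brightest tested probe. These genes were thus picked for their p and do not represent their lists. Gene names were read from the array annotation, and 0 of the members' symbols had changed. Alternatives were the authors' processed values, no background correction, median scaling, an offset of 50, a detection p of 0.01 or no filter, BeadChip as a block, BeadChip 2 alone, a replicate block, the methods' t-test and leaving out each array. Upstream windows are RefSeq sequences (GRCr8), trimmed to 250 bases before the start. Probe sequences came from the study's probe list, matched by symbol and transcript; its probe identifiers differ from those of the deposited table. Python 3.11.15, pandas 2.3.3 and matplotlib 3.10.9 were used for tables and figures.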

Additional observations from a re-analysis of the deposited data

Results flagged for a closer look

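Some tested members had 1 array far from the others of its group by Dixon's criterion, which chance meets in about 1 in 20 groups. Itgb1bp1 read 10.19 on STZ 3, above the other STZ arrays at 9.83 to 9.85. Vcan read 8.03 on Control 5, above the other Control arrays at 7.77 to 7.83. Lama1 read 7.25 on STZ 2 and 7.23 on Control 5, each the highest of its group. Itga1 read 7.44 on STZ 1, the lowest STZ array. Col2a1 read 8.79 and Col8a1 8.88 on STZ 1, each the highest STZ array.

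Among the members left out of the tests, 4 were detected on some STZ arrays and on no Control array. These were Itga5 on 2 STZ arrays, and Col1a1, Itga6 and Col17a1 on 1 STZ array each. The lowest detected log2 level lay at 7.04 to 7.05 on all arrays, but a value above it was not always detected: Col17a1 read 7.07 on both STZ 1, where it was detected, and Control 1, where it was not. The difference in detection was not tested.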

How the results depend on the processing

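Over all tested probes, 956 passed in the main setting. The count was 77 with median scaling, where 87.0% of calls were higher against 52.0% in the main setting, 575 without a detection filter, 179 with BeadChip as a block and 12 within BeadChip 2. It was 1 within BeadChip 2 without STZ 1, 49 without STZ 1, Control 3 and Control 4, and 535 by the methods' t-test after Benjamini-Hochberg adjustment. Leaving out 1 array gave 472 to 1016. Of the members 4 passed in the main setting. With median scaling, the BeadChip block, BeadChip 2 alone, BeadChip 2 without STZ 1, or the 3 arrays left out, 0 members passed, 2 did without a filter, 1 by the adjusted t-test, and 1 to 5 when 1 array was left out. The robust background, chosen after the data were seen, gave 924 probes and 5 members. The replicate numbers did not pair the rats (correlations of deviations -0.08, 0.16, -0.07 and 0.15), and the replicate block gave 246 probes and 1 member, Col5a3.

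Some differences of the named members changed sign, all but that of Col18a1 near 0 in the main setting. Members not followed singly changed sign as well. With median scaling 5 of 7 fibrillar collagens were positive, against 3 in the main setting. Within BeadChip 2 without STZ 1, 0 of 7 further collagens were positive, against 2 in the main setting. Lamb3 was 0.0121 with the BeadChip block, 0.0123 within BeadChip 2 and 0.0106 there without STZ 1. Itga1 was 0.0193 with median scaling, 0.0747 without the 3 arrays and -0.0424 to 0.0485 when 1 array was left out. Itga2 was -0.0060 without the 3 arrays and -0.0035 to 0.0084 when 1 was left out. Col1a2 was 0.0525 with median scaling, 0.0061 with an offset of 50, 0.0479 without the 3 arrays and -0.24 to 0.24 when 1 was left out. Col18a1, 0.19 in the main setting, was -0.0156 within BeadChip 2 without STZ 1. The cause of these changes was not tested. Faint members near a log2 level of 7 are limited by the background model. Itgb4, Lama5, Col5a1 and Col11a2 kept their direction in all settings run. Their groups did not overlap, so leaving out arrays could hardly have reversed it. None of them passed with median scaling, with the BeadChip block or within BeadChip 2.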
